A study of Mus musculus with 7 samples.

Results

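The BMP and TGF-beta pathway was followed through 43 genes for its secreted ligands, receptors, antagonists, Smad proteins and Id targets, in osteolineage cells sorted from mouse bone marrow stroma. The members are a list of genes by function, and 42 of the 43 had a probe set that the platform annotation assigns to exactly 1 gene symbol, among 12393 genes measured in all. Bmp3 was not analysed here. Where a gene had several probe sets, the brightest on average over the 7 arrays stands for it.

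The Ocn+ group (labelled Topaz Osteocalcin, green cells) held 3 arrays and the Osx+ group (labelled mCherry Osterix, red cells) held 4. All cells came from OsxCre-mCherry;OcnCre-Topaz double transgenic mice aged 4 to 6 weeks, and were sorted 6 days after tamoxifen, which both groups received. The red mark follows osterix, the product of Sp7 and a factor of cells committed to bone, and the green mark follows osteocalcin, a protein of mature osteoblasts; doubly marked cells are not analysed here. The labels leave unsaid whether arrays came from separate or pooled animals, so each p-value reflects spread between arrays that may be technical. The comparison asks how osteocalcin-marked cells differ from osterix-marked cells.

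BMPs, TGF-betas and activins are secreted dimers of one superfamily that bring together type I and type II receptor kinases. BMP receptors phosphorylate Smad1, Smad5 and Smad9, and TGF-beta and activin receptors phosphorylate Smad2 and Smad3; these then join Smad4 and act on genes in the nucleus, among which Id1, Id2, Id3, Smad6 and Smad7 are well known. In bone, BMPs induce osteoblast formation, TGF-beta is stored in the matrix in a latent form, and noggin, chordin, gremlin and follistatin bind ligands outside the cell.

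Facts of the whole set of arrays bear on every value. Values are log2 signals, so a difference of 1 is a doubling of signal, and levels of different probe sets are not comparable. Osteoblast markers gave signal in both groups. Their mean over the 11 measured of 16 listed genes was 12.32 to 12.72 in Ocn+ arrays and 11.39 to 12.56 in Osx+ arrays. Of these 11, 8 had a difference above 0 and 3 below. Sp7 differed by 0.18 (SE 0.25), while Mepe differed by 2.61 (SE 1.08), without overlap. Sost, Phex and Dmp1 differed by 1.07, 0.71 and 0.66, with overlap. The part of the osteoblast markers in the member differences was not tested. The osteocalcin genes were not analysed here. Xist, the RNA of X inactivation in female cells, was high in 4 arrays (12.33 to 12.96; Ocn+ replicates 2 and 3, Osx+ replicates 2 and 4) and low in 3 (4.87 to 5.79; Ocn+ replicate 1, Osx+ replicates 1 and 3). A difference among low-Xist arrays therefore rests on a single Ocn+ array. In limma with Benjamini-Hochberg adjustment, 0 of 12393 genes passed at 0.05 and 658 had an unadjusted p under 0.05.

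Ocn+ arrays carried more signal for the activin subunit gene Inhbb, for the Smad of TGF-beta and activin signalling Smad3, for the activin-binding follistatin Fst and for the receptor Tgfbr2, each without overlap between the groups. None of the 42 members passed over all genes, where 0.00% of genes were called (limma, smallest member adjusted p = 0.689), and 4 had an unadjusted p under 0.05, or 9.52%, against 5.31% of all genes. These were Inhbb, Smad3, Fst and Nog, all higher in Ocn+ cells, as 3.48% of all genes were at that p, and 0 members were lower, as 1.83% were. The arrays of the groups did not overlap for 4 of 42 members (9.52%), against 6.90% of all genes, and all 4 stood higher in Ocn+ cells, where 4.37% of all genes did; 0 members and 2.53% of all genes stood lower without overlap. The limma adjusted p was 0.999 for each member for which no other value is given. A difference above 0 was measured for 30 members (71.4%), against 52.7% of all genes. The median member difference was 0.23 log2 units, against 0.02 over all genes, and was 0.16 without Osx+ replicate 2. With each array left out in turn, 8 members stayed within 1.5 times their difference, namely Inhbb, Smad3, Fst, Nog, Inhba, Tgfbr2, Bmp4 and Smad2, and 11 of 42 changed sign without some array. A difference of at least 1 log2 unit in size was measured for 4 members, namely Inhbb, Inhba, Nog and Bmp8a, or 9.52%, against 3.52% of all genes.

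**Figure D1:**
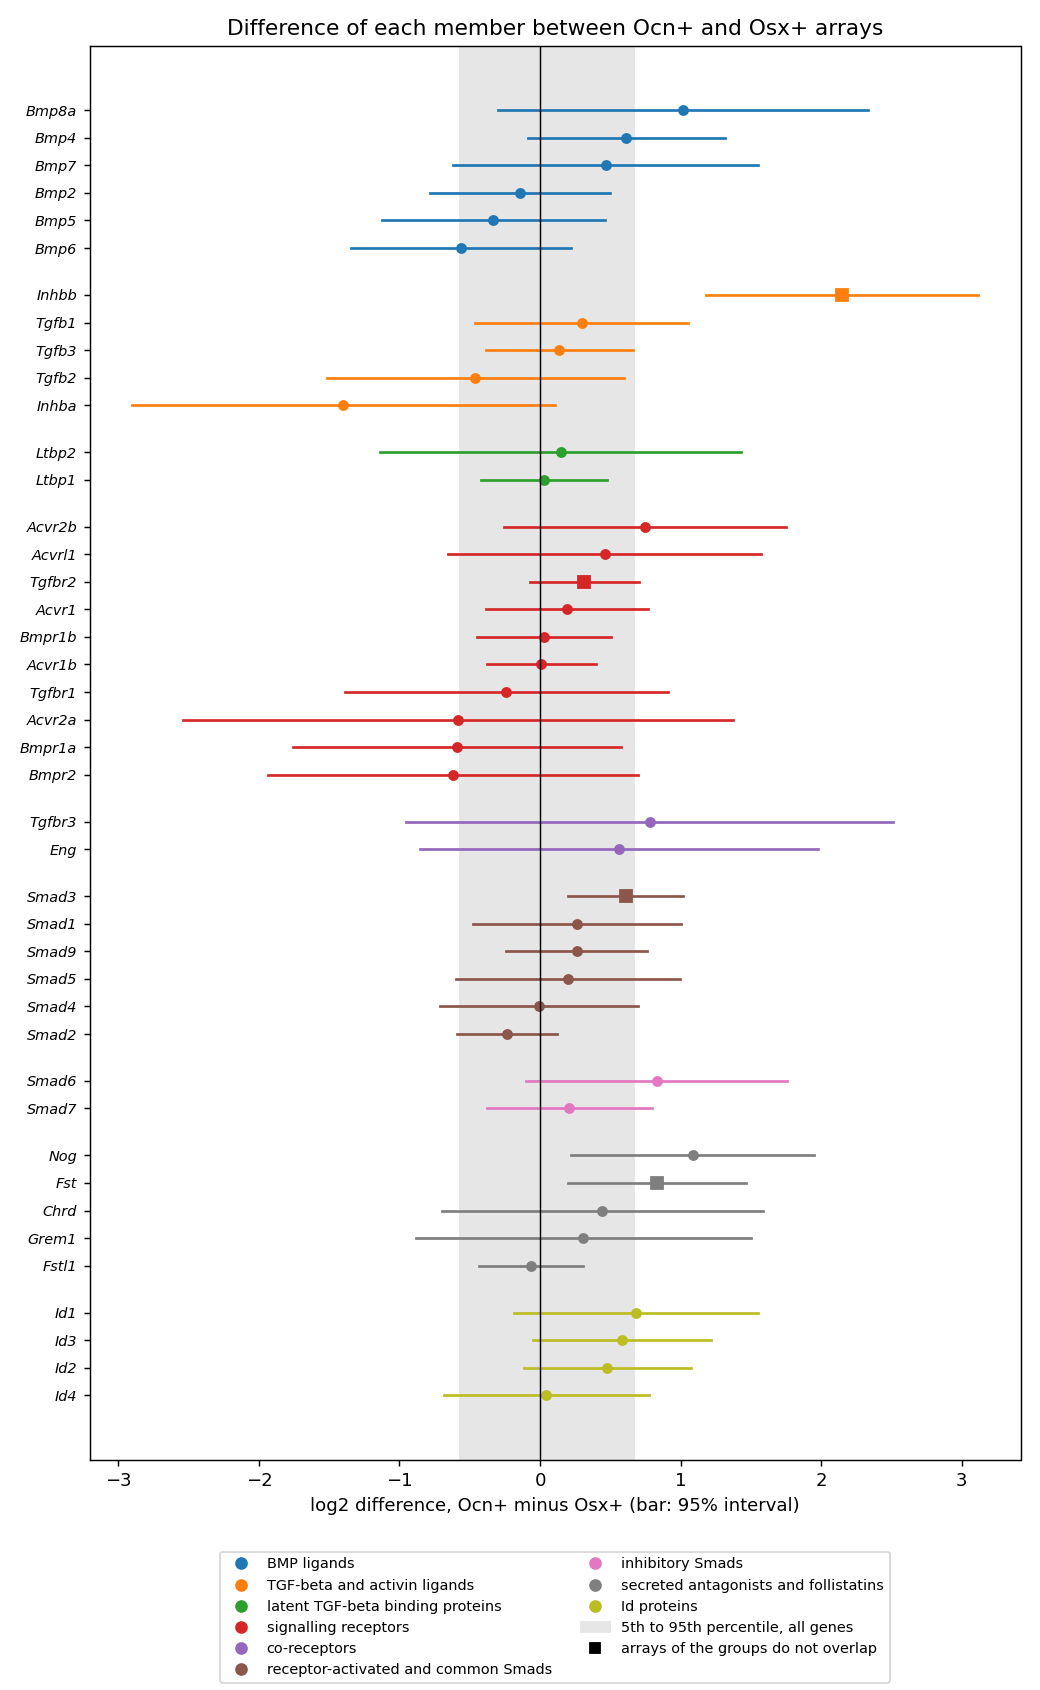
Log2 difference (Ocn+ minus Osx+) of each of 42 members with its 95% interval, grouped by class; squares mark the 4 members whose arrays do not overlap, and the grey band spans the 5th to 95th percentile of all genes (-0.57 to 0.67). Inhbb at 2.15 lies far to the right of the band and Inhba at -1.40 to its left. The intervals of Inhbb, Smad3, Fst and Nog exclude 0, and all others, that of Inhba among them, include it.

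The activin subunit genes had differences of opposite sign. Inhbb encodes the beta B subunit, which forms activin B. It measured 10.26, 11.27 and 11.45 in the Ocn+ arrays, against 9.22, 8.65, 8.11 and 9.42 in the Osx+ arrays. Every Ocn+ array lay above every Osx+ array, and the closest values were 10.26 and 9.42. Inhbb averaged 11.00 ± 0.64 over the 3 Ocn+ arrays (SD), against 8.85 ± 0.59 over the 4 Osx+ arrays, a 4.43-fold brighter signal. The difference of 2.15 (SE 0.41, 95% interval 1.18 to 3.12) was the largest in size among the members. Its limma adjusted p was 0.689 with equal array weights and 0.0303 with arrays weighted by their fit, a setting that called 97 genes, or 0.783% of all, and 2 members. The difference was 2.33 in the high-Xist arrays and 1.60 in the low-Xist ones. A second Inhbb probe set, with signals of 5.38 to 6.47, differed by 0.42 (SE 0.30) and overlapped between the groups.

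Inhba, the gene of the beta A subunit and so of activin A, measured 6.78, 7.99 and 7.19 in the Ocn+ arrays, against 7.27, 10.07, 8.49 and 9.04 in the Osx+ arrays. Osx+ replicate 1 lay among the Ocn+ arrays and the other 3 Osx+ arrays lay above them. The difference was -1.40 (SE 0.64, 95% interval -2.90 to 0.11, limma adjusted p = 0.983), with -1.96 in the high-Xist arrays and -1.11 in the low-Xist ones. The highest Inhba value came from Osx+ replicate 2, the array with the highest mean of chondrocyte markers. Osx+ replicate 1 had the next highest marker mean, 12.01, and the lowest Inhba value of the Osx+ arrays. Osx+ replicates 3 and 4, with marker means of 10.83 and 10.96, had Inhba values between those of replicates 1 and 2. The chondrocyte marker mean was 9.80 to 11.33 in Ocn+ arrays and 10.83 to 12.74 in Osx+ arrays, and 11 of 13 measured markers had a difference below 0. Macrophage markers averaged 8.87 to 9.98 in Ocn+ arrays and 10.07 to 11.09 in Osx+ arrays, without overlap. For 12 of the 14 measured macrophage markers the difference was below 0. The part of either marker list in the Inhba result was not tested. In bulk RNA, fewer cells of a type and less RNA per cell cannot be told apart.

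The 250 bases upstream of the annotated Inhbb start are shown because this gene had the largest difference. They lie at chr1:119422249-119422498 on the minus strand (RefSeq, GRCm38.p6) and are printed 5′ to 3′ in the gene's direction. Motif matches would be in capitals, and neither of the motifs described with the Id genes was found in this window.
Inhbb: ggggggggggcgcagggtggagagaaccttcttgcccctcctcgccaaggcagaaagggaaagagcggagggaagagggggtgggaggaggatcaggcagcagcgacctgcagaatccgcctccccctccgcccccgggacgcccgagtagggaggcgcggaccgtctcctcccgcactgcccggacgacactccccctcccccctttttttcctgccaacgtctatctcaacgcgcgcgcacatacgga

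BMP ligands were divided, with 3 above 0 and 3 below. Bmp4, an inducer of bone formation, measured 9.73, 9.85 and 9.95 in the Ocn+ arrays, against 8.63, 8.97, 9.83 and 9.49 in the Osx+ arrays. The Ocn+ arrays lay close together and Osx+ replicate 3 stood among them. The difference was 0.61 (SE 0.30, 95% interval -0.09 to 1.32). Bmp8a, a BMP of the 60A subgroup, measured 9.43, 9.97 and 10.20 in the Ocn+ arrays, against 7.37, 8.84, 9.44 and 9.75 in the Osx+ arrays. Its difference of 1.01 (SE 0.56) was 0.52 without Osx+ replicate 1, which lay lowest. Bmp7, also osteogenic, measured 9.39, 8.77 and 8.69 in the Ocn+ arrays, against 8.67, 7.44, 9.47 and 8.34 in the Osx+ arrays, a difference of 0.47 (SE 0.46) that was 0.12 without Osx+ replicate 2 and 0.80 without Osx+ replicate 3. Both its highest and its lowest value came from Osx+ arrays.

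Bmp6, an osteogenic BMP that also drives hepcidin in liver, measured 9.53, 9.54 and 8.53 in the Ocn+ arrays, against 9.63, 10.30, 9.75 and 9.36 in the Osx+ arrays. The difference was -0.56 (SE 0.33) and -0.23 without Ocn+ replicate 3, the lowest array. Bmp5 measured 8.37, 8.79 and 8.76 in the Ocn+ arrays, against 8.38, 9.73, 8.62 and 9.17 in the Osx+ arrays, a difference of -0.33 (SE 0.34), or -0.08 without Osx+ replicate 2. Bmp2, needed for fracture repair in mice, measured 11.45, 12.13 and 11.91 in the Ocn+ arrays, against 11.45, 12.00, 12.05 and 12.39 in the Osx+ arrays. Its groups overlapped fully, with a difference of -0.14 (95% interval -0.78 to 0.50) that was 0.05 without Ocn+ replicate 1. Bmp5 and Bmp6 were highest in Osx+ replicate 2, as was Tgfb2.

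TGF-beta ligands and latent binding proteins had differences smaller than 0.5 log2 units in the probe sets used. Tgfb1, the main TGF-beta of bone matrix, averaged 11.39 ± 0.29 over the 3 Ocn+ arrays (SD), against 11.10 ± 0.55 over the 4 Osx+ arrays, and its difference of 0.30 was 0.08 without Osx+ replicate 2. Tgfb2 averaged 10.76 ± 0.25 over the 3 Ocn+ arrays (SD), against 11.22 ± 0.84 over the 4 Osx+ arrays, and all 3 of its probe sets had a difference below 0. The difference of the probe set used, -0.46, was -0.11 without Osx+ replicate 2. The other Tgfb2 probe sets differed by -0.86 (SE 0.52) and -0.58 (SE 0.70), and their groups overlapped. Tgfb3 measured 12.41, 12.01 and 11.97 in the Ocn+ arrays, against 12.14, 11.70, 12.35 and 11.79 in the Osx+ arrays. Within each group its low-Xist arrays were the higher ones. Ltbp1, a protein that holds latent TGF-beta in the matrix, measured 12.25, 12.68 and 12.75 in the Ocn+ arrays, against 12.60, 12.66, 12.27 and 12.59 in the Osx+ arrays, a difference of 0.03 (95% interval -0.42 to 0.48). Ltbp2, a microfibril protein of the same family that does not bind latent TGF-beta, measured 10.22, 9.19 and 9.49 in the Ocn+ arrays, against 10.10, 9.05, 10.47 and 8.33 in the Osx+ arrays. Its difference of 0.15 (SE 0.55) was small beside the gap of -1.25 between the high-Xist and low-Xist means.

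Follistatin and noggin were the antagonists with the smallest p-values. Fst, whose product binds activins with high affinity, measured 7.68, 7.42 and 7.62 in the Ocn+ arrays, against 6.21, 6.83, 7.33 and 6.60 in the Osx+ arrays. The groups did not overlap, but came close in Ocn+ replicate 2 and Osx+ replicate 3. The difference was 0.83 (SE 0.27, 95% interval 0.20 to 1.47), a 1.78-fold brighter signal, with a limma adjusted p of 0.878. It was 0.81 in the high-Xist arrays and 0.91 in the low-Xist ones.

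Nog, the gene of the BMP antagonist noggin, measured 8.03, 6.85 and 7.70 in the Ocn+ arrays, against 6.39, 6.15, 7.15 and 6.07 in the Osx+ arrays. Ocn+ replicate 2 lay below Osx+ replicate 3, so the groups overlapped. The difference was 1.09 (SE 0.37, 95% interval 0.22 to 1.95, limma adjusted p = 0.888), or 2.12-fold, with 1.16 in the high-Xist arrays and 1.26 in the low-Xist ones. Chrd, the gene of the BMP antagonist chordin, averaged 7.93 ± 0.65 over the 3 Ocn+ arrays (SD), against 7.49 ± 0.78 over the 4 Osx+ arrays. Grem1, which encodes the BMP antagonist gremlin, measured 6.82, 5.08 and 5.11 in the Ocn+ arrays, against 4.55, 5.41, 5.80 and 5.69 in the Osx+ arrays. Its difference of 0.31 was -0.27 without Ocn+ replicate 1, the highest array. Fstl1, a follistatin-like secreted glycoprotein, measured 13.46, 13.21 and 13.34 in the Ocn+ arrays, against 13.24, 13.55, 13.49 and 13.33 in the Osx+ arrays, a difference of -0.06 (95% interval -0.43 to 0.31). As a class, 4 of 5 antagonists and follistatins had a difference above 0, with a median of 0.44 that was 0.08 without Ocn+ replicate 1. That median is the Chrd difference, which was likewise 0.08 without that array.

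**Figure D2:**
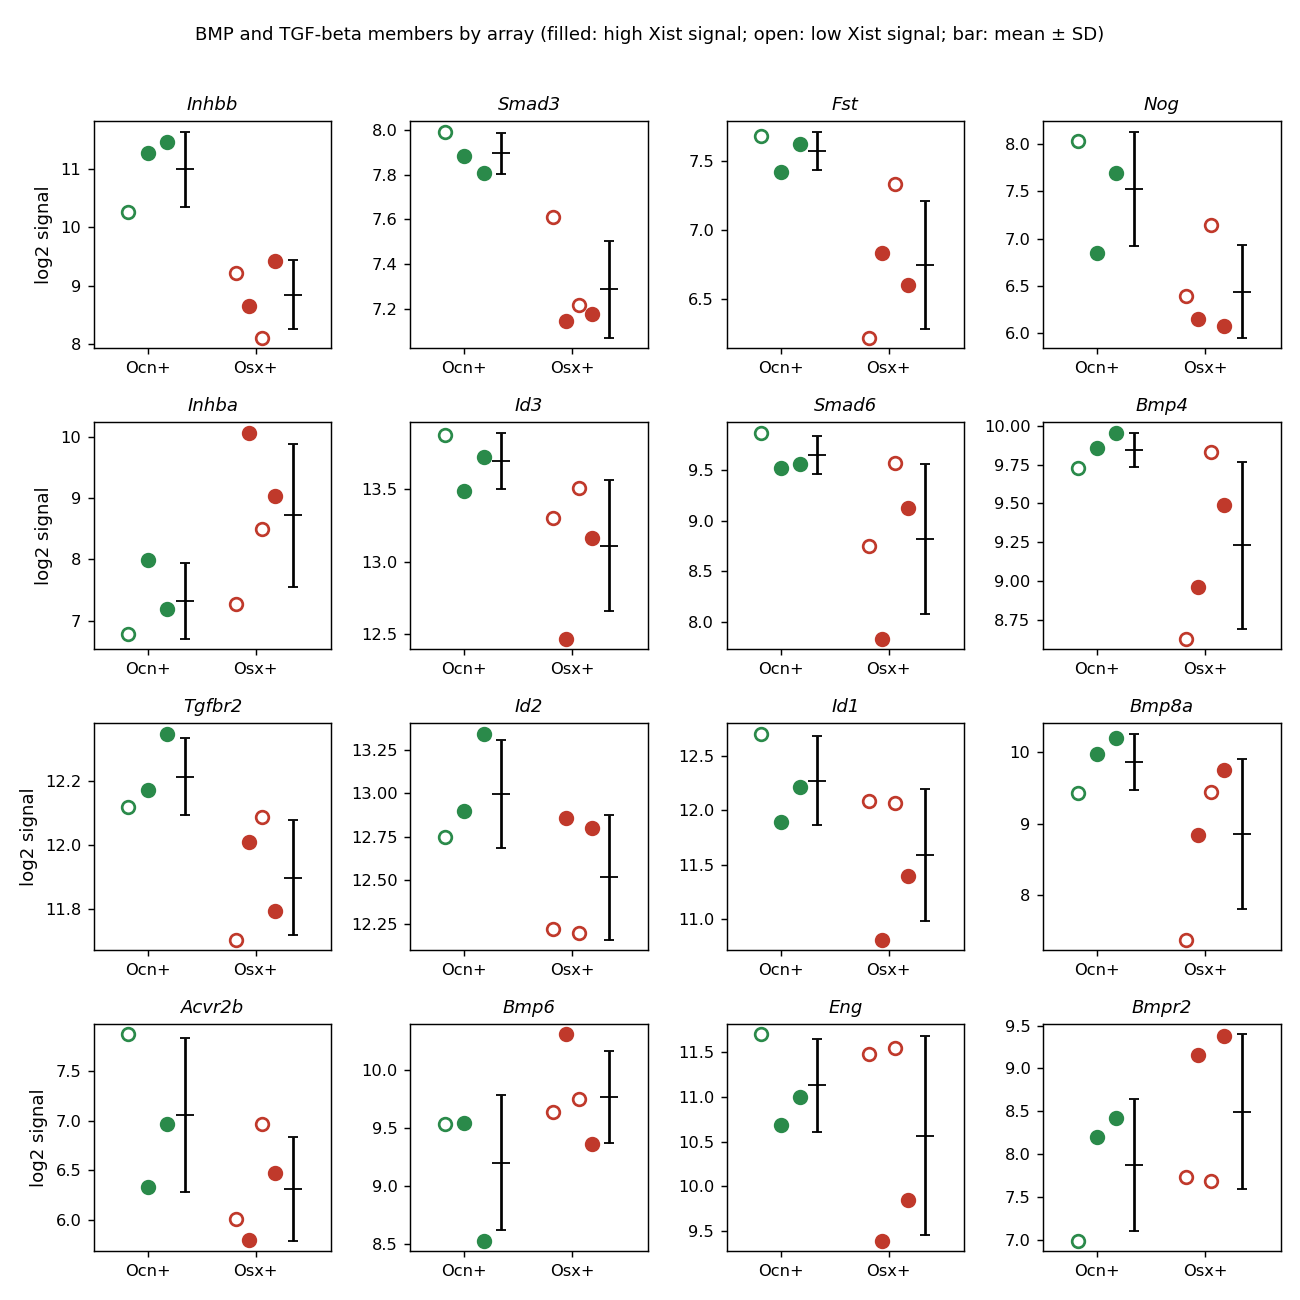
Log2 signal of 16 members in each of the 3 Ocn+ (left, green) and 4 Osx+ (right, red) arrays, with mean ± SD beside them; filled points have high Xist signal and open points low. The panels show the 14 members of smallest p in order, then Eng and Bmpr2; Inhbb, Smad3, Fst and Tgfbr2 show no overlap, while Bmpr2 and Eng differ more between filled and open points than between groups.

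Endothelial markers were brighter in Ocn+ arrays, though 0 passed in limma. Their mean level was 9.43 to 9.74 in Ocn+ arrays and 6.26 to 8.98 in Osx+ arrays, and 19 of 19 measured of 20 listed genes had a difference above 0. Cdh5, the cadherin of endothelial junctions, had the largest difference of the list and measured 9.49 to 10.95 in Ocn+ arrays and 5.80 to 7.62 in Osx+ arrays. The groups did not overlap for 9 of the 19. The others overlapped, among them Erg, Ramp2 and Stab2, with differences of 0.32, 0.80 and 0.29. Within the Osx+ group the endothelial mean was 7.71, 6.26, 8.98 and 6.77 in replicates 1 to 4. It was highest in replicate 3 and lowest in replicate 2. The low-Xist replicates 1 and 3 lay above the high-Xist replicates 2 and 4, so this order cannot be told apart from the Xist class. Among the 42 members, 14 were highest in replicate 3 and 12 lowest in replicate 2, and both held for 6, namely Bmp7, Tgfb3, Acvr2b, Eng, Smad6 and Id3. The opposite also occurred, since 6 members were lowest in replicate 3, Inhbb among them, and 11 were highest in replicate 2. More members were lowest in replicate 1 than in replicate 2. Such counts were not made over all genes, so they describe the members only. Neutrophil markers averaged 10.39 to 10.59 in Ocn+ arrays and 7.19 to 10.11 in Osx+ arrays, and osteoclast markers 10.36 to 10.69 in Ocn+ arrays and 8.22 to 10.16 in Osx+ arrays. The means of these 3 lists therefore separated the groups as Inhbb, Smad3, Fst and Tgfbr2 did, and their part in those differences, and in those of Nog, Smad6 and the Id genes, was not tested.

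Acvrl1 and its co-receptor Eng are known chiefly from endothelial cells, though Eng also marks stromal cells. Acvrl1, the type I receptor ALK1, averaged 8.83 ± 0.48 over the 3 Ocn+ arrays (SD), against 8.37 ± 0.83 over the 4 Osx+ arrays. Eng, or endoglin, measured 11.70, 10.69 and 11.00 in the Ocn+ arrays, against 11.49, 9.39, 11.55 and 9.85 in the Osx+ arrays. All 3 low-Xist arrays exceeded all 4 high-Xist arrays for Eng. The difference was 0.56 (SE 0.60), with 1.23 in the high-Xist arrays and 0.18 in the low-Xist ones, and was 0.17 without Osx+ replicate 2. Tgfbr3, or betaglycan, a co-receptor that presents TGF-beta2, measured 6.47, 7.70 and 8.52 in the Ocn+ arrays, against 5.04, 7.51, 6.92 and 7.65 in the Osx+ arrays. Its difference of 0.78 (SE 0.74) was 0.20 without Osx+ replicate 1, the lowest array.

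Tgfbr2, the type II receptor of TGF-beta, measured 12.12, 12.17 and 12.35 in the Ocn+ arrays, against 11.70, 12.01, 12.09 and 11.79 in the Osx+ arrays. The groups did not overlap, but nearly met in Ocn+ replicate 1 and Osx+ replicate 3. The difference was 0.31 (SE 0.16, 95% interval -0.07 to 0.70), or 1.24-fold, with a limma adjusted p of 0.999. Another Tgfbr2 probe set differed by 0.53 (SE 0.26) and overlapped, and a dim one at 3.33 to 3.92 differed by less than 0.01. The partner type I receptor Tgfbr1 averaged 10.53 ± 0.67 over the 3 Ocn+ arrays (SD), against 10.77 ± 0.78 over the 4 Osx+ arrays. The Tgfbr1 probe set used differed by -0.24 and the others by 0.34 and 0.01.

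BMP and activin receptors differed in sign from gene to gene. Acvr2b, a type II receptor of activins, measured 7.87, 6.32 and 6.97 in the Ocn+ arrays, against 6.01, 5.79, 6.97 and 6.47 in the Osx+ arrays, a difference of 0.74 (SE 0.43) that was 0.34 without Ocn+ replicate 1. That array lay apart at the top, and the other Ocn+ arrays lay among the Osx+ arrays. Acvr2a, the related type II receptor, averaged 8.58 ± 1.05 over the 3 Ocn+ arrays (SD), against 9.16 ± 1.43 over the 4 Osx+ arrays, the widest spread of any member. Its difference of -0.58 turned to 0.02 without Ocn+ replicate 1, and its other probe set differed by 0.11 (SE 0.65). Bmpr2, the type II receptor of BMPs, measured 6.99, 8.20 and 8.43 in the Ocn+ arrays, against 7.73, 9.16, 7.69 and 9.38 in the Osx+ arrays. Its difference of -0.62 (SE 0.56) stood beside a gap of 1.32 between the means of the high-Xist and low-Xist arrays, which did not overlap, and was -0.18 without Ocn+ replicate 1. The type I receptor Bmpr1a differed by -0.59 (SE 0.50), or -0.10 without Ocn+ replicate 1, and each of its 5 probe sets had a difference below 0. Acvr1, a type I receptor also known as ALK2, differed by 0.19 (SE 0.24), and the activin type I receptor Acvr1b by 0.01 (95% interval -0.38 to 0.40). Bmpr1b, another BMP type I receptor, had the lowest signals of the members' probe sets used, with 4.68, 4.98 and 4.54 in the Ocn+ arrays and 5.06, 4.69, 4.46 and 4.61 in the Osx+ arrays. It differed by 0.03 (95% interval -0.45 to 0.50). In all, 6 of 10 signalling receptors had a difference above 0 and 4 below, with a median of 0.02, the same as that of all genes to this precision.

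Among the Smads that carry the signal, Smad3 alone separated the groups. It measured 7.99, 7.89 and 7.81 in the Ocn+ arrays, against 7.61, 7.14, 7.22 and 7.18 in the Osx+ arrays. Osx+ replicate 1 stood nearest to the Ocn+ arrays and the other 3 Osx+ arrays lay close together. The difference was 0.61 (SE 0.17, 95% interval 0.20 to 1.02), or 1.53-fold, with a limma adjusted p of 0.758 and of 0.0491 with array weights. It was 0.69 in the high-Xist arrays and 0.58 in the low-Xist ones. The other Smad3 probe set measured 6.95, 6.67 and 6.74 in the Ocn+ arrays, against 6.04, 5.66, 6.39 and 5.92 in the Osx+ arrays, again without overlap, a difference of 0.78 (SE 0.21). Both probe sets read the same RNA samples and are not independent replicates.

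Smad2, which carries the same signals as Smad3, had a difference in the other direction, with 10.31, 10.22 and 10.07 in the Ocn+ arrays and 10.52, 10.41, 10.52 and 10.29 in the Osx+ arrays. The groups overlapped narrowly, and the difference was -0.24 (SE 0.15, 95% interval -0.59 to 0.12). Smad1, of the BMP branch, measured 12.22, 12.95 and 12.99 in the Ocn+ arrays, against 11.97, 12.76, 12.18 and 12.92 in the Osx+ arrays. Its low values were those of the low-Xist arrays in both groups. Smad5, also of the BMP branch, differed by 0.20 (SE 0.34), and the shared partner Smad4 by -0.01 (SE 0.30). Smad9, the third Smad of the BMP branch, measured 6.24, 5.89 and 6.17 in the Ocn+ arrays, against 6.08, 5.48, 5.67 and 6.12 in the Osx+ arrays, a difference of 0.26 (SE 0.21). Its mean lies below the 25th percentile of all genes. Across these 6 Smads, 4 had a difference above 0 and the median was 0.23.

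All 4 Id genes and both inhibitory Smads, which the pathway itself induces in many cells, had differences above 0 in the probe sets used. None passed, and the Id4 difference was only 0.04. Id3 measured 13.87, 13.49 and 13.72 in the Ocn+ arrays, against 13.30, 12.47, 13.51 and 13.17 in the Osx+ arrays. Only Osx+ replicate 3 reached into the Ocn+ range. The difference was 0.58 (SE 0.27, 95% interval -0.05 to 1.22, limma adjusted p = 0.986). Id1 measured 12.71, 11.89 and 12.22 in the Ocn+ arrays, against 12.09, 10.81, 12.07 and 11.39 in the Osx+ arrays, a difference of 0.68 (SE 0.37). Without Osx+ replicate 2 the difference was 0.42 for Id1 and 0.37 for Id3. For Id1, Osx+ replicates 1 and 3 lay within the Ocn+ range and replicates 2 and 4 below it. Id2 measured 12.75, 12.90 and 13.34 in the Ocn+ arrays, against 12.22, 12.86, 12.20 and 12.80 in the Osx+ arrays, a difference of 0.48 (SE 0.25), or 0.30 without Ocn+ replicate 3. Its other probe sets differed by 0.03 and 0.84. Id4 measured 10.84, 10.30 and 10.39 in the Ocn+ arrays, against 10.94, 9.91, 10.88 and 10.15 in the Osx+ arrays. Its difference was 0.04 (SE 0.31), and its groups overlapped fully. The Id4 difference turned to -0.14 without Osx+ replicate 2, and its other probe sets differed by 0.07 and -0.27. The median over the 4 Id genes was 0.53. All encode helix-loop-helix proteins that lack a DNA-binding region and block other such factors.

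Smad6, an inhibitor chiefly of BMP receptors, measured 9.87, 9.52 and 9.56 in the Ocn+ arrays, against 8.75, 7.83, 9.57 and 9.12 in the Osx+ arrays. Osx+ replicate 3 stood level with the Ocn+ arrays and replicate 2 lay lowest. The difference was 0.83 (SE 0.39, 95% interval -0.10 to 1.76, limma adjusted p = 0.999), or 1.78-fold, and was 0.50 without Osx+ replicate 2. Smad7, an inhibitor of TGF-beta and BMP receptors, measured 12.55, 12.75 and 12.83 in the Ocn+ arrays, against 12.17, 12.90, 12.12 and 12.82 in the Osx+ arrays, a difference of 0.21 (SE 0.25). Its 2 lowest values were Osx+ replicates 1 and 3, both low-Xist arrays. The Smad7 difference was -0.07 in the high-Xist arrays and 0.41 in the low-Xist ones.

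Promoter sequence is shown for Id2 and Id3, known targets of BMP signalling with differences above 0. The first motif searched was GGCGCC, a GC-rich Smad motif that reads the same on both strands. The second was CAGAC, the core of the Smad binding element, searched on both strands and so also found as its reverse complement. The motifs cannot overlap in the matches shown, since no sequence below holds both, and matches are in capitals. Among 32851 promoters of 250 bases in the RefSeq table, 9.59% hold GGCGCC and 42.2% hold CAGAC. Among 37 promoters of 31 members with an entry, 9 hold the first (24.3%) and 17 the second (45.9%), with no allowance for base composition. The Id2 window (chr12:25096093-25096342, minus strand) has 1 match to GGCGCC, and the Id3 window (chr4:136143572-136143821, plus strand) has 2 matches to CAGAC. Both are from RefSeq, GRCm38.p6, and run 5′ to 3′ up to the annotated start. The windows of Smad6 and Id4 are not shown. Smad6, with a larger difference of 0.83, has 0 matches to either motif. Id4, with a difference of 0.04, has 1 match to GGCGCC. A match is a description of these letters and not a site.
Id2: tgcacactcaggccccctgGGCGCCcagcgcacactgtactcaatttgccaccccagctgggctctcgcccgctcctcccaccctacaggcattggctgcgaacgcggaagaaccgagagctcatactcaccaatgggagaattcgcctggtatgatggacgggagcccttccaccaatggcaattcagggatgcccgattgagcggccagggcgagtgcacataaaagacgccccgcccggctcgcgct
Id3: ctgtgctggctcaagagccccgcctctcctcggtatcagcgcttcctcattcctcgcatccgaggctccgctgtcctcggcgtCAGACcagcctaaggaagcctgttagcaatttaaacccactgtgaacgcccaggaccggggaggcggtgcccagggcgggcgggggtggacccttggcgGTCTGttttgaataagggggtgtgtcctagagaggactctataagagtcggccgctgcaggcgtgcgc

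**Figure D3:**
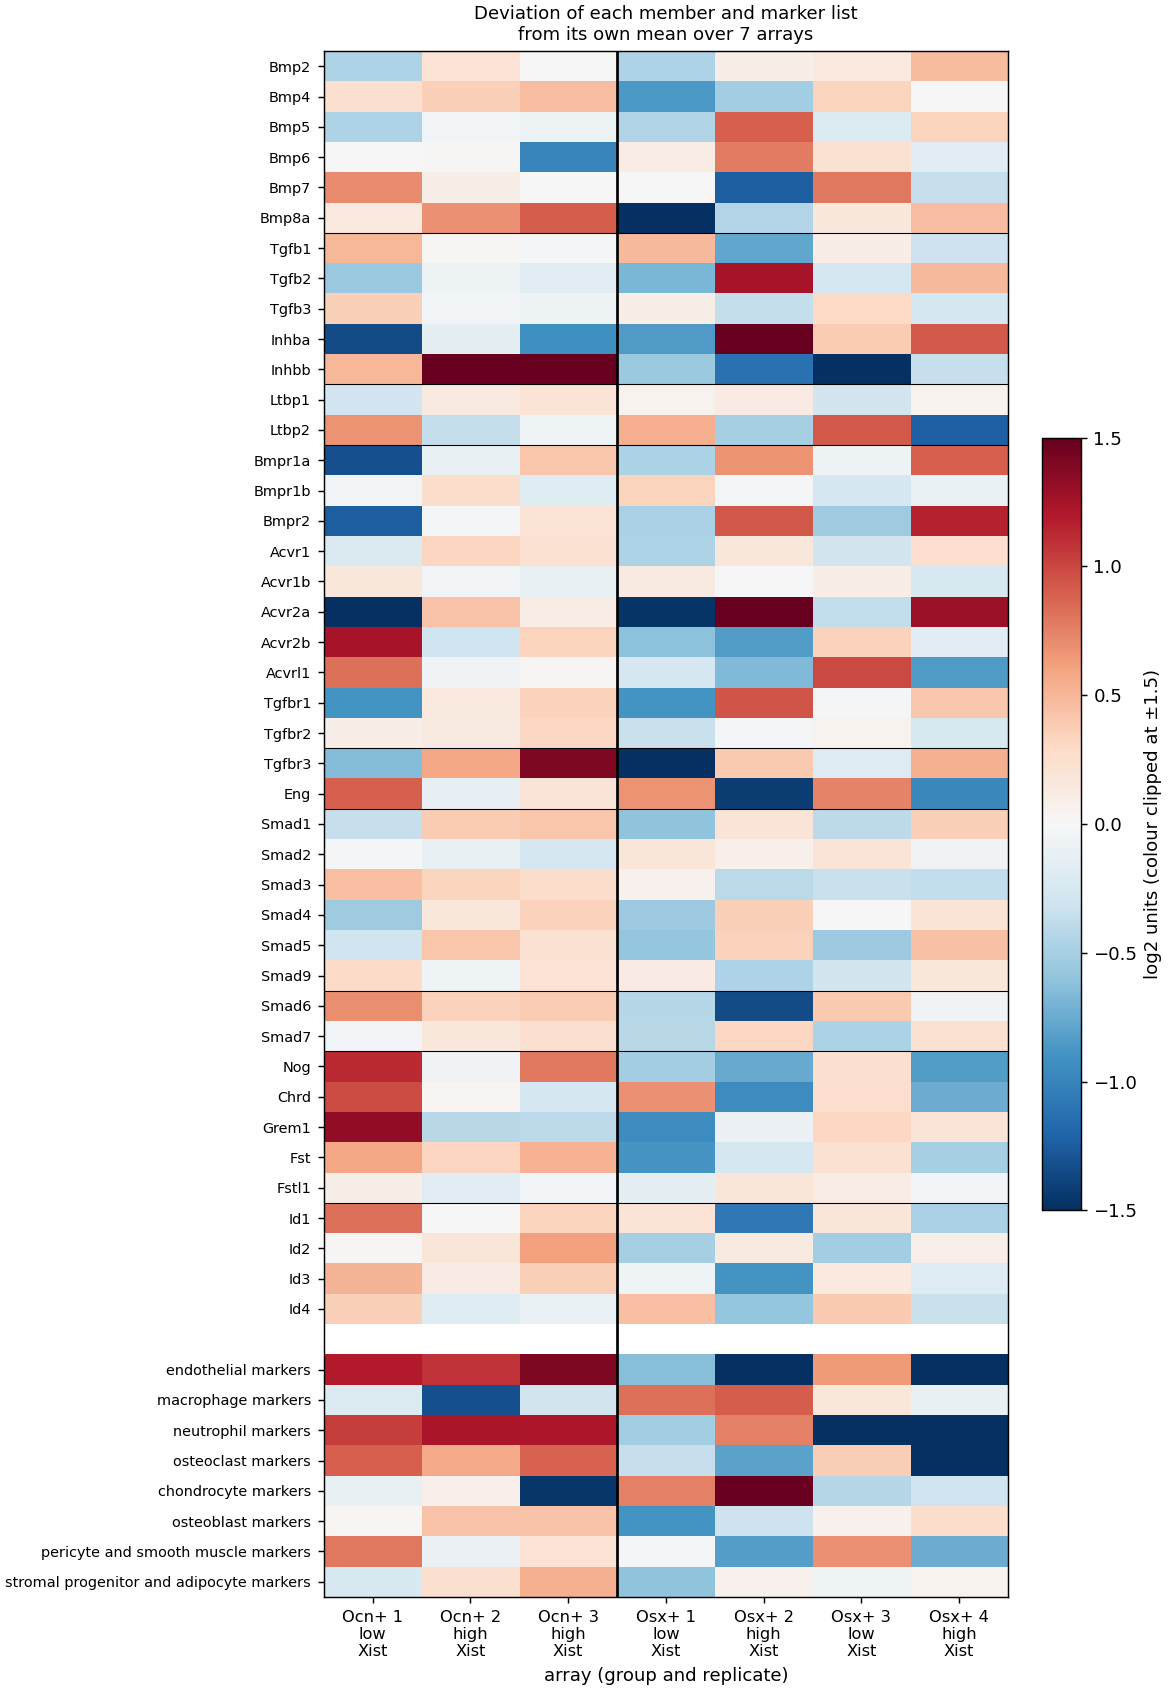
Deviation of each member (rows, by class) and of the mean of 8 marker lists (bottom rows) from its own mean over 7 arrays, in log2 units, with Ocn+ arrays left of the line and Osx+ arrays right. Inhbb is red in all 3 Ocn+ arrays and blue in all 4 Osx+ arrays, whereas Bmpr2, Acvr2a and Eng separate the high-Xist from the low-Xist arrays named under the map.

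The second pattern in that map was the Xist class. For 19 of 42 members (45.2%) the 4 high-Xist and 3 low-Xist arrays did not overlap, against 34.3% of all genes, so such a separation was common across the arrays. Of the 42 members, 12 (28.6%) stood higher and 7 (16.7%) lower in the high-Xist arrays, against 12.9% and 21.4% of all genes. Acvr2a had the widest gap, 1.96 log2 units. With the Xist class as a term in limma, 0 members passed.

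Where a gene had several probe sets, they could be set against each other. The 42 members had 71 probe sets, and 18 members had more than 1. Of the 29 probe sets not used above, 23 gave a difference of the same sign as the one used. All probe sets of a gene had the same sign for 13 of the 18 members. Those with both signs were Acvr2a, Tgfbr1, Tgfbr2, Smad4 and Id4. Among the 29, 2 had groups that did not overlap, 1 of Smad3 and 1 of Id2, both higher in Ocn+ cells.

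**Figure D4:**
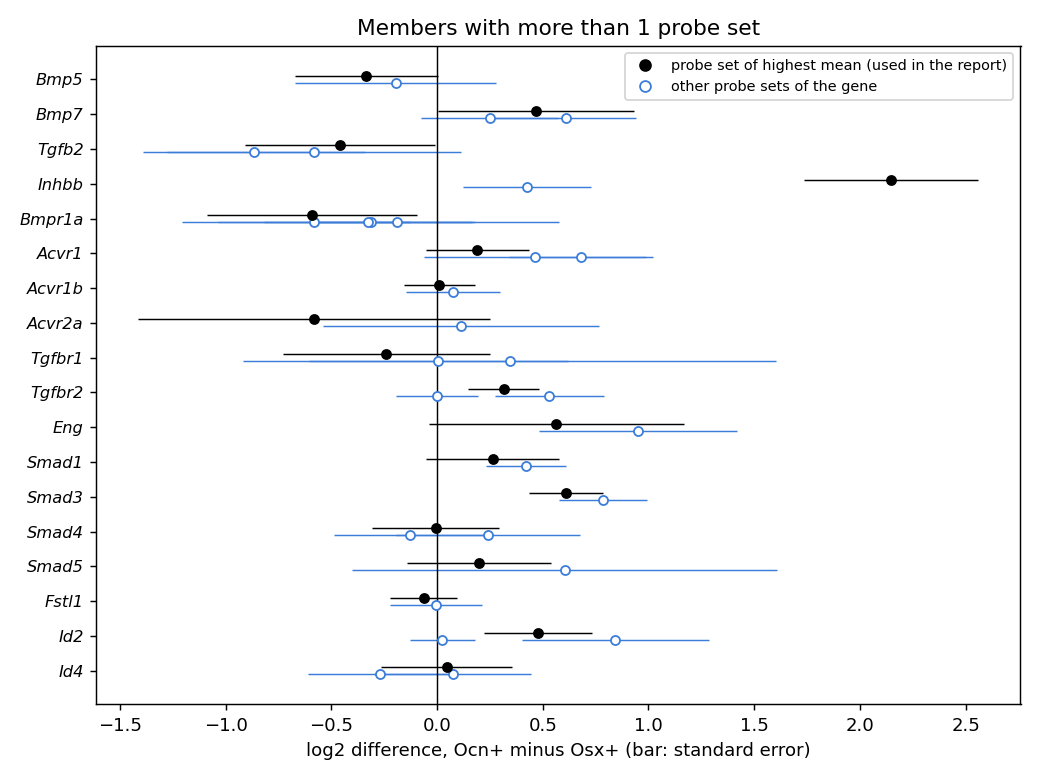
Log2 difference (Ocn+ minus Osx+) with its standard error for the 18 members with more than 1 probe set; black points are the probe sets used and open blue points the others. The Smad3 points lie together at 0.61 and 0.78, and the second Inhbb probe set at 0.42 lies well below the one used at 2.15.

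Other genes of the pathway, listed by function, were measured for 63 of 84. In limma 0 of them passed in either direction, and 5 of the 63 had an unadjusted p under 0.05, against 5.31% of all genes. A difference above 0 was measured for 40 (63.5%), against 52.7% of all genes, and a difference below 0 for 23. Their median was 0.05, against 0.02 over all genes. Among the 6 of smallest p, Fbn2, the gene of fibrillin-2, which anchors latent ligands in microfibrils, differed by 1.29 (SE 0.52). Gdf10, a ligand also called BMP3b, differed by 0.64 (SE 0.26). Dlx3, a homeobox factor of bone-forming cells, differed by 1.16 (SE 0.49). Hey1 and Hes1, which Notch and BMP signals can both induce, differed by 0.84 (SE 0.31) and 0.94 (SE 0.32). Tgfbi, a matrix protein induced by TGF-beta, differed by -0.44 (SE 0.19). The groups overlapped for all 63 of these genes, while 6.90% of all genes did not overlap.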

How the data were processed

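Total RNA of sorted cells was extracted with Trizol, amplified by the NuGEN Ovation V2 method and labelled with biotin, per the labels' protocols. The deposited log2 values, 1 per probe set and array, were made with RMA, per the submitters' processing notes; the sources used here do not give its software or version. RMA equalizes array distributions, so total RNA per cell cannot be read. Array medians were 8.25 to 8.35, and precision rests on 3 against 4 arrays.

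Of 22690 probe sets, 20380 had 1 gene symbol in the platform annotation. Symbols were updated through Entrez identifiers (20351 matched), and the probe set of highest mean gave 12393 genes. R 4.3.3 with limma 3.58.1 (lmFit, eBayes, no block) gave each difference, Ocn+ minus Osx+, with 2-sided p-values adjusted by Benjamini-Hochberg over all genes at 0.05. A fold is the brighter over the dimmer group mean. No filter on dim signal was used; 39 of 42 members exceeded the 25th percentile.

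The members, lists and alternatives were chosen with earlier results of these data known, and the Xist classes (log2 signal over or under 8) came from the data. The rule gave full values for passing members or, with fewer than 5, the 14 of smallest p, those without overlap, and the brightest and dimmest of each class; of other pathway genes, the 6 of smallest p. The fit was tested on simulated data, in 20 runs with 200 changed genes each. It called 26.3% of changes of 1 log2 unit, 67.8% of 2 and 92.3% of 4, with 7.2 false calls per run. A true difference of 1 log2 unit or less would therefore often fail to pass. The alternatives were a replicate block, each array left out, 2 signal filters, array weights, a robust trended prior, centring on medians, repeated quantile normalization, other choices of probe set, the Xist class as a term or split, and a threshold of 0.1.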

Additional observations from a re-analysis of the deposited data

Results flagged for a closer look

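Smad3 in Osx+ replicate 1 stood at 7.61, apart from the other 3 Osx+ arrays at 7.14 to 7.22, with a gap of 0.85 of the group's range. It lies between them and the Ocn+ arrays, and without it the Smad3 difference was 0.72. This was the 1 such array among the 42 members, where chance marks about 1 in 20 groups. Groups of 3 arrays were not examined in this way.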

How the results depend on the processing

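The 14 members of smallest p kept their direction under every alternative run, and none passed except Inhbb (adjusted p = 0.0303) and Smad3 (0.0491) with array weights. In limma the count of called genes was 97 with array weights, of which 2 were members, 19 within the high-Xist arrays, and 0 to 3 with an array left out, the 3 arising without Osx+ replicate 2 and without Osx+ replicate 3; it was 0 under the other alternatives, the threshold of 0.1 included. Array weights ran from 0.24 to 6.02 and were estimated from the same arrays. The median of the antagonists and follistatins was -0.0628 once genes dimmer than the median signal were dropped, where Fstl1 was the gene left, and 0.91 within the low-Xist arrays; it ran from 0.08 to 0.70 with an array left out. The median of the receptor-activated and common Smads was 0.0519 within the high-Xist arrays. With the replicate number as a block limma called 0 genes and 0 members (Inhbb 2.34, SE 0.47, adjusted p = 0.513). Same-numbered arrays deviated together for replicates 1 and 2 (correlations of 0.63 and 0.45) and not for replicate 3 (-0.30), so the numbers were not taken as pairs. Replicates 1 and 2 also have the same Xist class in both groups. Replicate 3 does not, with Xist at 12.37 in Ocn+ and 5.79 in Osx+, so on these values its arrays do not share a single animal. For replicates 1 and 2, whether same-numbered arrays come from the same animal is not given in the labels. For the other 28 members, 517 of 519 recomputed differences moved by less than 1 SD between arrays. That limit is wide, since leaving out an array can hardly move a difference so far. Among the 42 members, 11 changed sign without some array. No detection calls were used here, so the dimmest members, Bmpr1b, Grem1 and Smad9, may carry little signal over background.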

Other observations

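All 4 high-Xist arrays stood above all 3 low-Xist arrays for Bmp5, Tgfb2, Bmpr2, Acvr1, Acvr2a, Tgfbr1, Tgfbr3, Smad1, Smad4, Smad5, Smad7 and Id2. The gaps between class means ran from 0.54 log2 units for Smad7 to 1.96 for Acvr2a. All 4 stood below for Tgfb1, Tgfb3, Ltbp2, Acvr1b, Eng, Chrd and Id4, with gaps from -0.23 for Acvr1b to -1.35 for Eng. The members with the smallest p between Ocn+ and Osx+ cells, Inhbb, Smad3, Fst and Nog, were not in either set. For Inhbb, Smad3 and Fst this was fixed in advance. Both groups hold arrays of both Xist classes, so a gene without overlap between the groups cannot separate the classes. The absence therefore says nothing of the Xist class in those differences.

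The Osx+ arrays were the more variable group. The SD between arrays was larger in the Osx+ than in the Ocn+ group for 33 of 42 members (78.6%), against 75.4% of all genes, and the median SD of the members was 0.36 in Ocn+ cells and 0.53 in Osx+ cells. Sost, whose product sclerostin binds Wnt co-receptors and is made by osteocytes, differed by 1.07 (SE 0.53), and Sostdc1, a related BMP and Wnt antagonist, by 0.80 (SE 0.43). Neither passed, and both were chosen after their values were seen. Macrophage markers averaged 8.87 to 9.98 in Ocn+ arrays and 10.07 to 11.09 in Osx+ arrays, without overlap. Their part in the member differences, that of Inhba included, was not tested.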
